A study of Rattus norvegicus with 53 samples.

Results

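Tmem135, a gene of rat chromosome 1 (ENSRNOG00000016815, reverse strand, start site at position 153096269 of the Rnor_6.0 build), was followed across whole eyes of outbred rats, together with the genes whose levels rose or fell with it. Tmem135 was taken by its identifier as 1 gene of the 32576 deposited, and 13843 others, each with at least 1 CPM (counts scaled to a library total of 1000000) in the median eye, were tested against it. The eyes came from 51 heterogeneous stock (HS) rats, an outbred population founded from several inbred strains, with 1 eye per rat and the extraocular muscles removed before RNA was extracted. All eyes formed 1 group, with no control group, and were collected for a study of the genetics of intraocular pressure. In the study as a whole, some rats had taken part in behavioural tests and had been allowed to self-administer nicotine. The labels used here did not say whether any of these 51 had. Nor did they give the age and sex of the rat behind each eye. The part of nicotine, age and sex in the results was therefore not tested. Whole-eye RNA mixes the retina, lens, cornea, uvea and sclera, so that fewer cells of a type and less RNA per cell cannot be told apart. Only 785 of the deposited genes could be given a symbol, nearly all of them from the study's list of genes with a nearby associated variant in these same eyes, so the 706 named genes among those tested were a selected set. Markers of the main cell types of the eye could therefore be checked only in part: Guca1b, a rod photoreceptor gene, and Glul, a Müller glia gene, were both present in every eye, with medians of 571 and 2895 CPM.

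Tmem135 encodes a membrane protein that crosses the membrane several times and is found on peroxisomes and mitochondria. Peroxisomes shorten very long and branched fatty acids and pass the products to mitochondria, where they are burned. In mice, Tmem135 is known for setting the balance of mitochondrial fission and fusion, and its mutation leads to changes of the retina and the retinal pigment epithelium that resemble early ageing. The photoreceptors of the retina are among the most energy-demanding cells of the body and are packed with mitochondria.

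The promoter of Tmem135 is shown because the chromosome carrying mitochondrial genes stood out among its partners, and because the promoter held the letters CGCATGCG, the core of the motif of NRF1, a transcription factor known for its role at nuclear genes of mitochondrial function. The 8 letters read the same on both strands. They began 67 bases before the start site of Tmem135. They were found in 1.81% of 27457 rat promoters of 300 bases (250 before and 50 after each start site, RefSeq, GRCr8 build). The NRF1 core was picked from several motifs looked for, and the others are not given. The same letters were absent from the promoters of the mitochondrial genes Uqcrc2, Acadm and Ucp2. They were also absent from those of the peroxisomal genes Crot and Pex13. Of the 15 named genes closest to Tmem135, 11 had a promoter in that set and 1, Esf1, held the same letters, 120 bases before its start site. Both promoters lie on the reverse strand and are printed 5′ to 3′ along the gene, with the NRF1 core in capitals. The Tmem135 promoter is at chr1:152633668-152633967 and the Esf1 promoter at chr3:147961436-147961735, in GRCr8.
Tmem135: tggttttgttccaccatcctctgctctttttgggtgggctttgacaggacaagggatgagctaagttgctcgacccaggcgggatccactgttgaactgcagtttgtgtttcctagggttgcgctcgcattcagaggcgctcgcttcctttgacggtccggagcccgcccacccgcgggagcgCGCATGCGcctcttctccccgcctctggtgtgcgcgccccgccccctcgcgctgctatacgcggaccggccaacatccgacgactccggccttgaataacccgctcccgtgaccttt
Esf1: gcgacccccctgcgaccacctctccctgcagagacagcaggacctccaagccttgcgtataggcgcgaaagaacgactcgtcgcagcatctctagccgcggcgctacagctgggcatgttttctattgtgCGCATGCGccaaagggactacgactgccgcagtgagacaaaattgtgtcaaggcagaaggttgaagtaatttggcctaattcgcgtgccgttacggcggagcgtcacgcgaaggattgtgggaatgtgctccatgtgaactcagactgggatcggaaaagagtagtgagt
A match is a description of these letters only, and no binding was measured. Promoters were at hand for 79.6% of the named genes, fewer than 80%, so a comparison of motif or GC content between partners and other genes was void and is not given.

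Tmem135 was expressed in every eye, at a moderate level that varied 3.77-fold. The lowest eye had 16.6 CPM, the next lowest 26.3 CPM, the median eye 42.01 CPM, the second highest 58.9 CPM and the highest 62.7 CPM. The mean was 42.9 ± 9.65 CPM (SD, n = 51). The lowest eye lay about 1 SD of CPM below the next, while the upper end was evenly filled. These levels rested on 337 to 1956 expected counts of Tmem135 per eye, so that counting error was small beside the spread between eyes. The SD of log2(CPM + 1) was 0.35, larger than that of 60% of the 200 genes nearest to Tmem135 in level. The middle level of Tmem135 exceeded that of 67.3% of the genes tested, on a scale not divided by gene length.

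**Figure D1:**
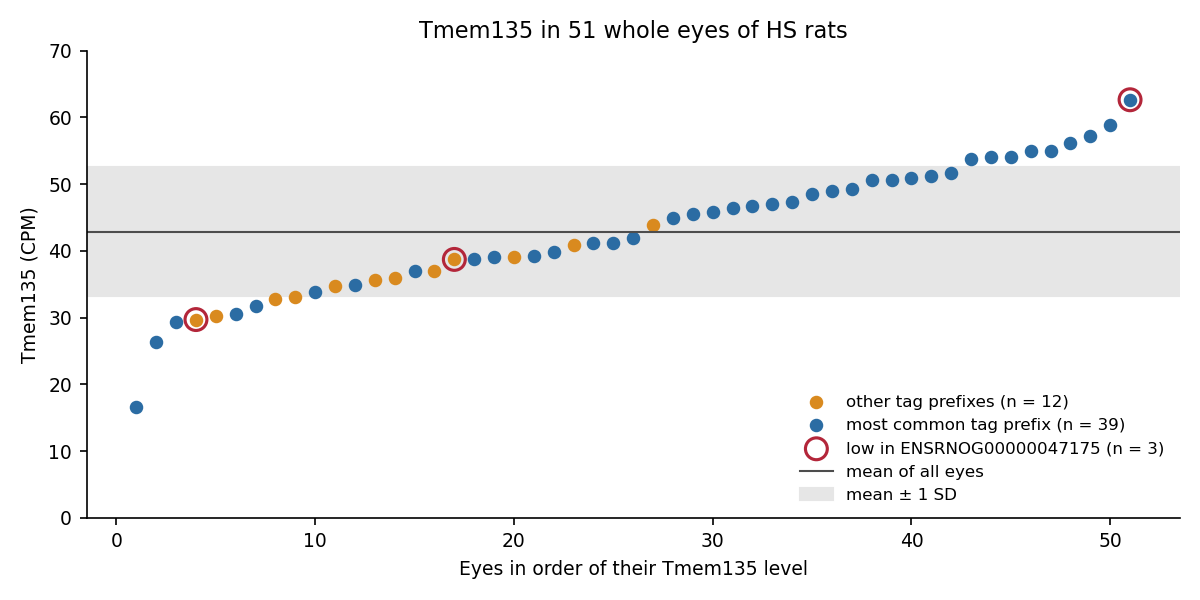
Tmem135 in CPM (vertical axis) in 51 eyes in order of their level (horizontal axis). Colours give the tag prefix of the rat, circles mark the 3 eyes low in ENSRNOG00000047175, the line is the mean of all eyes and the band 1 SD either side. The lowest eye lies at 16.6 CPM and the highest, itself a circled eye, at 62.7 CPM.

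The libraries held 9109084 to 42146827 expected counts, with a median of 16193478, and 14729 to 16876 genes above 0. In 3 eyes ENSRNOG00000047175, a gene of chromosome 20 with no symbol in the sources used here, stood at 8.33, 24.04 and 44.7 CPM, while its median over all eyes was 38907 CPM. Tmem135 itself was not low in these 3 eyes as a set: they had 38.7, 62.7 and 29.7 CPM of Tmem135, in the same order, and the second of them was the highest of all eyes. The 4 eyes formed by the lowest Tmem135 eye and these 3 were left out in repeats of the results below.

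Of the 6 library measures compared, Tmem135 moved most closely with the share of RNA from the mitochondrial genome. Transcripts of chromosome MT made up 0.440% of the counts in the lowest Tmem135 eye and 8.91% in the highest Tmem135 eye, which was also the highest eye for chromosome MT. The lowest share was 0.418% and the median 3.15%. Pearson's r between Tmem135 and the summed chromosome MT level, both on the log2 scale, was 0.77 (permutation p = 1e-05, the smallest that 100000 permutations can give, adjusted p = 6e-05 over 6 library measures), and Spearman's rho was 0.73 (permutation p = 1e-05). Leaving out the 2 eyes farthest from the median Tmem135 level gave 0.71, and leaving out the 4 eyes gave 0.69. Of the nuclear genes tested, 96.3% had a smaller r with the chromosome MT sum than Tmem135 had, and 13.1% had an r above 0.5.

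The other library measures were weaker. Tmem135 had an r of 0.42 with the number of genes above 0 (permutation p = 0.00227, adjusted p = 0.00681, rho = 0.41), and of −0.11 with the total expected count (permutation p = 0.416). With Guca1b, the rod gene, r was −0.38 (permutation p = 0.00597, adjusted p = 0.0119, rho = −0.33), and leaving out the 2 farthest eyes gave −0.25. With Hbb, a haemoglobin gene and the marker of blood, r was −0.26 (permutation p = 0.0642). ENSRNOG00000047175 gave an r of −0.08 over all eyes (permutation p = 0.574) but a rho of −0.46 (permutation p = 0.00099), and without the 3 eyes in which it was low r was −0.44, so that it was lower in eyes with more Tmem135 once those eyes were set aside.

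Tmem135 also differed with the tag of the rat, a split made after the data were seen. The labels name each rat by a tag, and no source used here says what its prefix stands for. The 12 eyes with other tag prefixes had 35.99 ± 4.25 CPM of Tmem135 and ranged between 29.7 and 43.9 CPM, against 44.97 ± 9.88 CPM in the 39 eyes with the most common prefix, which ranged between 16.6 and 62.7 CPM. The difference, other minus common, was −0.28 on the log2 scale (permutation p = 0.0122, two-sided), and −0.25 with median-of-ratios scaling (permutation p = 0.0274). The chromosome MT sum differed in the same direction, by −0.77 on the log2 scale (permutation p = 0.0145). Within the 39 eyes r between Tmem135 and chromosome MT was 0.79 and within the 12 eyes it was 0.68. The 12 eyes pool several prefixes. They include the eyes with 8.33 and 44.7 CPM of ENSRNOG00000047175, the latter also the lowest of all eyes for chromosome MT, at 0.418%.

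Across the transcriptome, 3236 genes (23.4% of those tested) rose with Tmem135 and 2313 (16.7%) fell, at an adjusted p under 0.05 by limma with Benjamini-Hochberg adjustment over all 13843 genes. Of the genes called, 58.3% rose, while 99.96% rose when the deposited values were not scaled to library depth, which leaves depth in every value. The median r over all genes tested was −0.05. Tmem135 had 2506 genes with an r beyond 0.5 in either direction, more than 79.0% of the genes tested had, and the median gene had 918.

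Without the lowest eye 2755 genes rose and 1786 fell, and without the 3 eyes low in ENSRNOG00000047175 the counts were 3123 and 1850. Without all 4 eyes 2567 genes (18.5%) rose and 1245 (8.99%) fell. Of the original calls, 2495 that rose (77.1%) and 1093 that fell (47.3%) were among them. In all 5 of these settings, the fourth alternative being median-of-ratios scaling, 2443 genes rose (75.5% of the 3236) and 985 fell (42.6% of the 2313). With median-of-ratios scaling and without the same 4 eyes 2667 genes rose and 2422 fell, which took in 79.2% of the original rising calls and 73.2% of the falling ones.

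**Figure D2:**
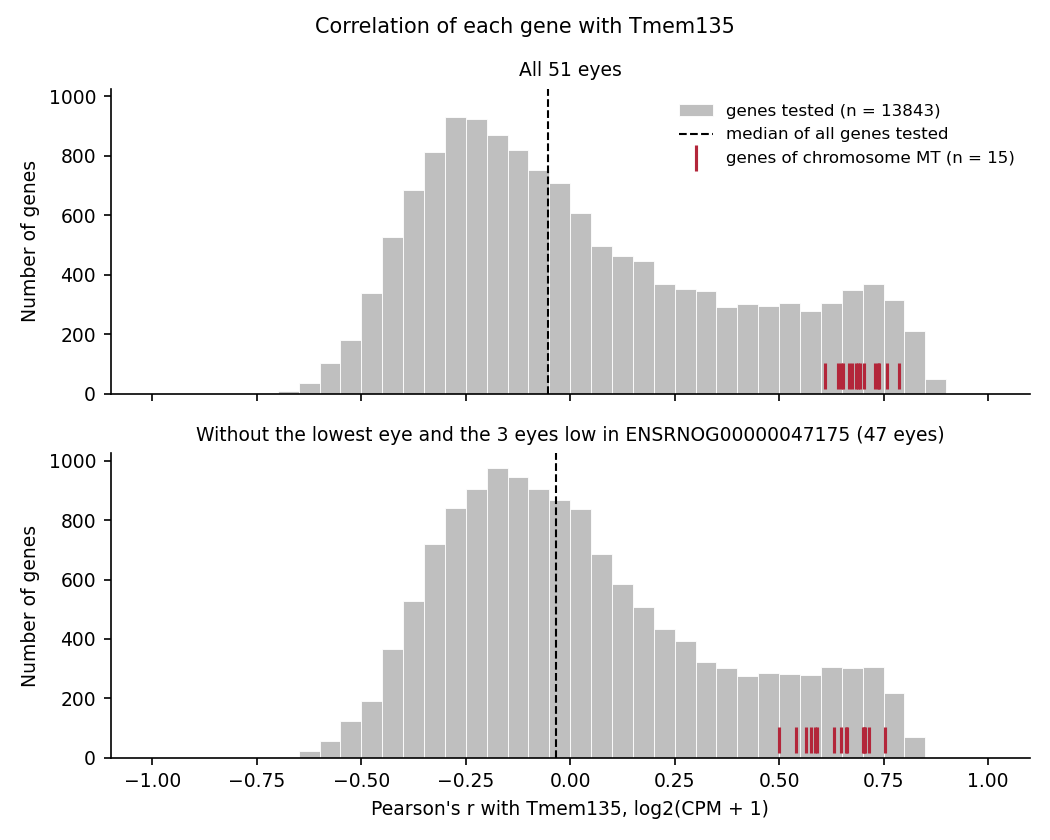
Number of genes (vertical axis) by Pearson's r with Tmem135 (horizontal axis, bins of equal width) over all 51 eyes (top) and 47 eyes (bottom). The dashed line is the median of all 13843 genes, and red ticks mark the 15 tested genes of chromosome MT, which all lie between 0.61 and 0.79 in the top panel and between 0.50 and 0.75 in the bottom panel.

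All 15 tested genes of chromosome MT, of 37 deposited, rose with Tmem135, against 23.4% of all genes tested. Their r ranged between 0.61 and 0.79 with a median of 0.69, against −0.05 over all genes tested. Without the 4 eyes all 15 still rose, against 18.5% of all genes tested, with r between 0.50 and 0.75. Because transcripts of 1 genome share their source, these are not 15 separate observations.

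When the chromosome MT sum was entered as a covariate, an alternative added after the data were seen, 1542 genes (11.1%) rose with Tmem135 and 69 (0.498%) fell. Of these, 1324 and 58 were among the original calls. Of the 15 tested genes of chromosome MT, which are part of that sum, 0 rose and 2 fell. With the first 5 expression components as covariates limma called 0 genes in either direction, with 1369 genes at an unadjusted p under 0.05, and with 20 components, the number the study used in its own models, 0 genes again, with 832 at an unadjusted p under 0.05. No partner of Tmem135 was called once these shared components were in the model. The components were computed from these same eyes over all genes above 0, with Tmem135 and its partners among them. They take up variation that partners share, so the 0 calls cannot decide whether any partner follows Tmem135 itself.

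The closest partner of all was ENSRNOG00000009549 on chromosome 3, which has no symbol in the sources used here. It ranged between 33.02 CPM, in the lowest Tmem135 eye, and 146 CPM, in the highest Tmem135 eye, with a median of 100.3 CPM. Its r with Tmem135 was 0.90 (permutation p = 1e-05), its rho 0.87, and its log2 level rose by 1.05 ± 0.07 (SE) per log2 unit of Tmem135. Without the 4 eyes r was 0.85, and with the chromosome MT covariate the partial r was 0.73 (limma adjusted p = 1.47e-05).

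Among the named genes 111 rose (15.7%, against 23.4% of all genes tested) and 115 fell (16.3%, against 16.7%) with Tmem135, of 706. In all 5 settings 78 of the 706 named genes rose and 47 fell, against 2443 and 985 of all 13843 genes tested. The closest named partners included genes of oxidative stress, endosomes, RNA processing and the secretory pathway, a range of roles given here gene by gene and not tested as groups.

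Oxr1, which protects cells, and neurons in particular, against oxidative damage, was the closest named gene. It ranged between 104 and 367 CPM with a median of 219 CPM, and the lowest and highest Tmem135 eyes were also its lowest and highest. Its r was 0.84 (permutation p = 1e-05), its rho 0.83, and its log2 level rose by 1.14 ± 0.11 (SE) per log2 unit of Tmem135 (limma adjusted p = 6.16e-13). It held at 0.81 without the 4 eyes, at 0.85 within the most common tag prefix and at 0.67 within the other 12 eyes. Among all genes tested Oxr1 had rank 99 by r.

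Rabep1, an effector of the early endosome GTPase Rab5, ranged between 22.3 and 115 CPM with a median of 81.1 CPM. Its r was 0.82 (permutation p = 1e-05, rho = 0.73) and 0.71 without the 4 eyes. The lowest Tmem135 eye was its lowest eye by a wide step, since the next had 39.7 CPM. Elmod2, a GTPase-activating protein for the small GTPase Arl2, ranged between 21.2 and 141 CPM with r = 0.78, and 0.64 without the 4 eyes. Plekhf2, an early endosome protein of a pressure locus on chromosome 5, ranged between 59.0 and 111 CPM with r = 0.57 (limma adjusted p = 8.87e-05), and 0.51 without the 4 eyes. Within the 12 eyes of other tag prefixes its r was only 0.20. Plekhf2 had rank 1753 by r among all genes tested. It was not called with the chromosome MT covariate (partial r = 0.31, limma adjusted p = 0.149).

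Esf1, which in yeast is needed for ribosomal RNA processing, was at 2.07 CPM in the lowest Tmem135 eye and 46.99 CPM in the highest, its own extremes, with a median of 27.5 CPM. Its log2 level rose by 1.62 ± 0.16 (SE) per log2 unit of Tmem135, with r = 0.81 (permutation p = 1e-05, rho = 0.73) and 0.70 without the 4 eyes. Gpbp1, which binds GC-rich promoters, ranged between 9.03 and 179 CPM with the steepest slope of the named partners, 2.61 ± 0.28 (SE). Its r with Tmem135 was 0.78, below its r of 0.90 with the chromosome MT sum, and with that sum as a covariate its partial r was 0.31 (limma adjusted p = 0.112). Scaf11, a splicing factor, had r = 0.79 and Cbx3, a heterochromatin protein, r = 0.75. They were at 0.70 and 0.66 without the 4 eyes.

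Tmtc3, which adds mannose to proteins in the endoplasmic reticulum, and Ssr3, a subunit of the translocon-associated complex there, had r = 0.76 and 0.74. Ppp1cb, a catalytic subunit of protein phosphatase 1, had r = 0.78 over all eyes and without the 4 eyes alike. Ptp4a1, a tyrosine phosphatase, had r = 0.73 over all eyes and 0.74 without the 4 eyes. Il33, an alarm cytokine held in the nucleus, ranged between 24.3 and 144 CPM with r = 0.77, and 0.68 without the 4 eyes. Epm2aip1, a partner of the glycogen phosphatase laforin, had r = 0.79 and 0.78. Slc35f1, a member of a family of sugar nucleotide transporters, had r = 0.80 and, within the 12 eyes of other tag prefixes, 0.93. AABR07029605.1 and RGD1309748, for which no role is known here, both had r = 0.80.

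With the chromosome MT covariate, Oxr1, Rabep1, Esf1, AABR07029605.1, RGD1309748, Slc35f1, Epm2aip1, Scaf11 and Elmod2 were still called, with partial r between 0.45 and 0.56, while Gpbp1, Ppp1cb, Il33, Tmtc3, Cbx3, Ssr3 and Ptp4a1 were not, with partial r between 0.28 and 0.35. The lowest Tmem135 eye was also the lowest eye for 12 of these 16 genes. It was the second lowest for Epm2aip1 and Gpbp1, the fourth lowest for Ptp4a1 and the seventh lowest for Ppp1cb.

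**Figure D3:**
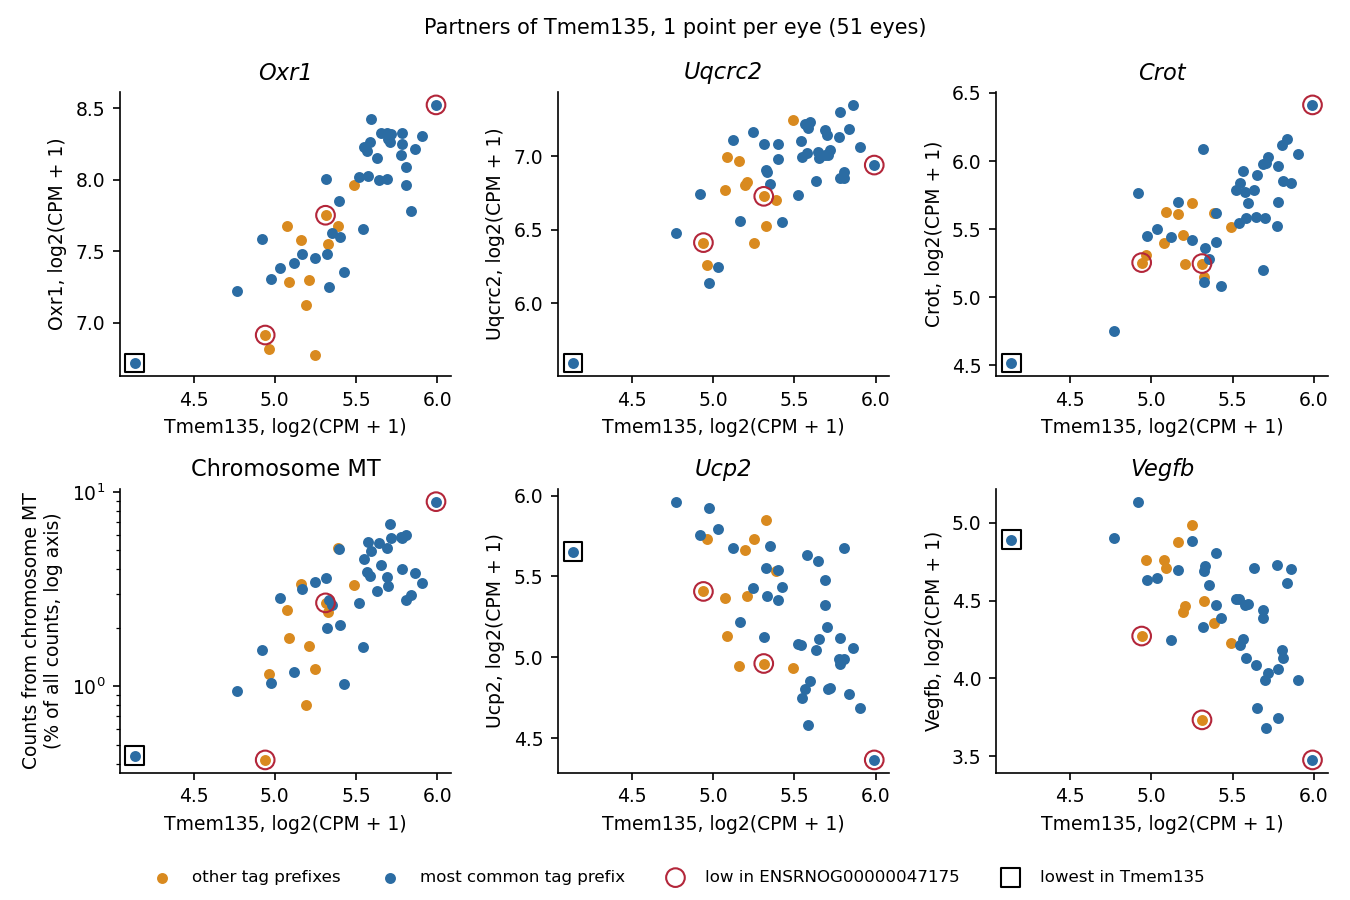
Level of 5 partner genes in log2(CPM + 1) and the share of counts from chromosome MT in percent on a log axis (vertical axes) against Tmem135 in log2(CPM + 1) (horizontal axes), 1 point per eye. Colours give the tag prefix, circles the 3 eyes low in ENSRNOG00000047175 and the square the eye lowest in Tmem135. Oxr1 rises along the whole range, Uqcrc2 and Crot rest in part on the squared eye, and Ucp2 and Vegfb fall.

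Genes that fell with Tmem135 did so less closely, and all 15 named ones with the strongest fall had a positive r when the values were not scaled to depth. Their direction could therefore be read only after scaling to depth. With median-of-ratios scaling, which does not use the library total, all 15 kept a negative r, between −0.68 (Agap3) and −0.44 (Vegfb). Ucp2, a carrier of the inner mitochondrial membrane named for uncoupling respiration, was the named gene with the strongest fall. It was at 19.6 CPM in the highest Tmem135 eye, its own lowest value, at 49.3 CPM in the lowest Tmem135 eye, and had a median of 39.1 CPM and a maximum of 61.4 CPM. Its r was −0.62 (permutation p = 1e-05, rho = −0.62), and it fell by 0.69 ± 0.12 (SE) on the log2 scale per log2 unit of Tmem135 (limma adjusted p = 7.03e-06). Without the 4 eyes r was −0.64, and within the 12 eyes of other tag prefixes −0.19.

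Vegfb, a growth factor of the VEGF family, ranged between 10.1 CPM, in the highest Tmem135 eye, and 34.2 CPM, with a median of 21.2 CPM. Its r was −0.59 (permutation p = 2e-05, rho = −0.59) and −0.63 without the 4 eyes. Of the 19 falling partners described here, Ucp2 and Vegfb were still called with the chromosome MT covariate, with partial r of −0.39 and −0.43 (limma adjusted p = 0.0436 and 0.0214). Over all 706 named genes 7 fell in that setting, against 69 (0.498%) of all 13843 genes tested. Agap3, a GTPase-activating protein for Arf GTPases, had r = −0.60 and −0.55 without the 4 eyes.

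The other falling partners had r between −0.57 and −0.49. They included Six3, a homeobox factor of eye development (r = −0.56), Rd3, a photoreceptor protein that handles guanylate cyclase (r = −0.49), Zyx, a focal adhesion protein (r = −0.56), Ngef, a guanine nucleotide exchange factor (r = −0.56), Lrp10, of the LDL receptor family (r = −0.56), and Man2b2 and Plbd2, lysosomal enzymes (r = −0.54 for both). Cacnb3 and Kcnab2, auxiliary subunits of calcium and potassium channels, had r = −0.52 and −0.51. The lowest Tmem135 eye was the highest eye for Six3, Man2b2, Plbd2, Cacnb3 and Kcnab2. Without the 4 eyes Kcnab2 stood at −0.26 and Plbd2 at −0.36 and neither was called (limma adjusted p = 0.181 and 0.0582), whereas Rd3 and Slc5a6, a vitamin transporter, stood at −0.57 each. Ptov1, Flywch1, Anxa6, Mmp15, Ncln and Szrd1 made up the rest, with r between −0.57 and −0.49. The lowest r of all genes tested was that of ENSRNOG00000053729 on chromosome 5, which has no symbol here, at −0.71 (permutation p = 1e-05, rho = −0.66), and −0.64 without the 4 eyes.

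**Figure D4:**
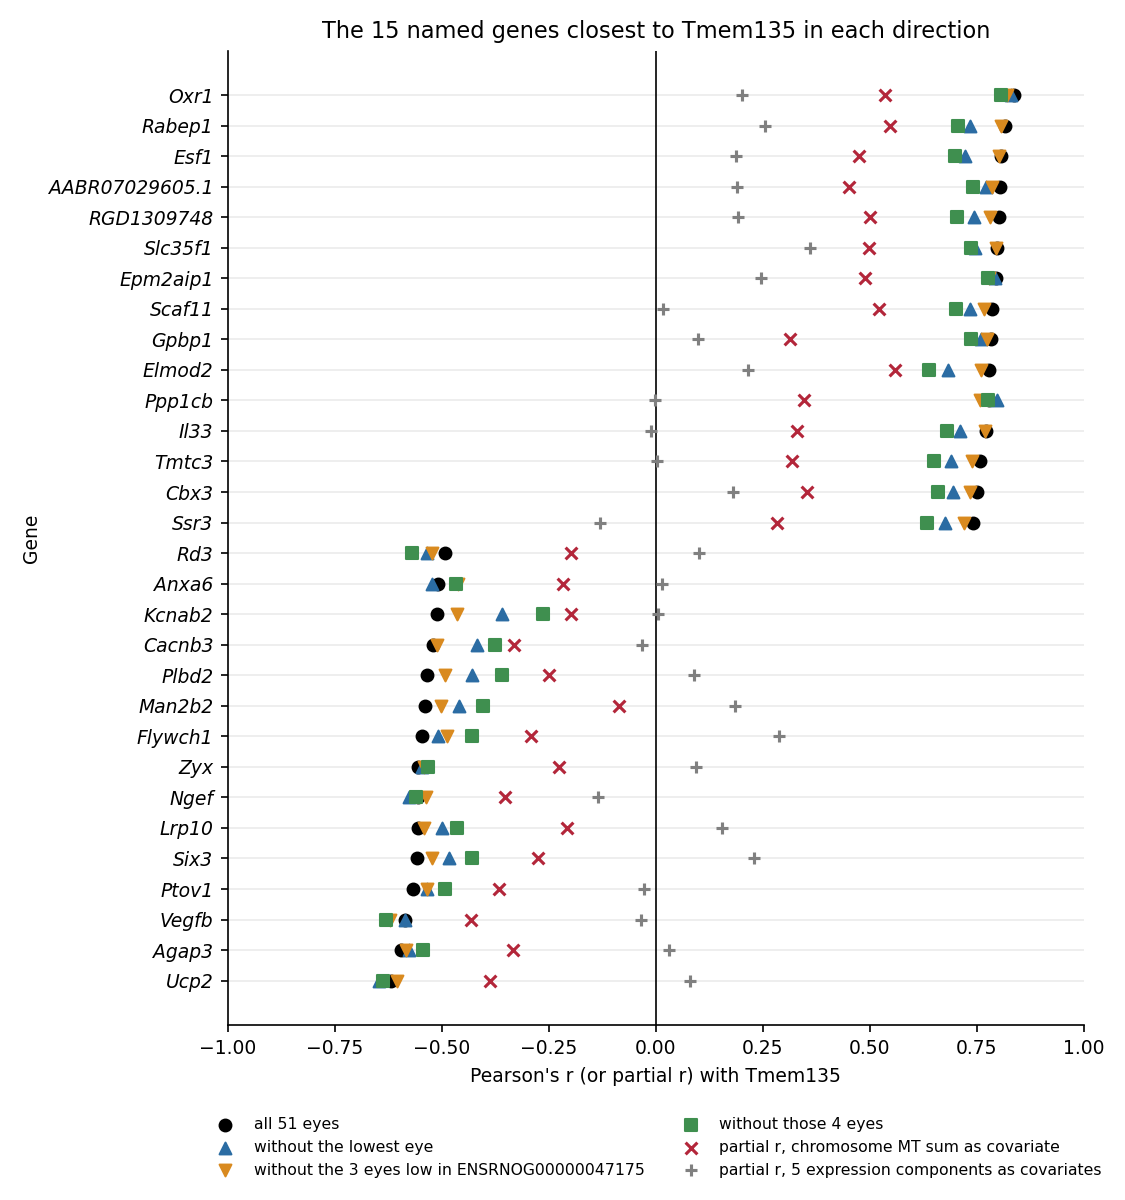
Pearson's r or partial r with Tmem135 (horizontal axis) of the 15 named genes with the strongest rise and the 15 with the strongest fall (vertical axis). Symbols give all 51 eyes, the same without the lowest eye, without the 3 eyes low in ENSRNOG00000047175 and without those 4, and with the chromosome MT sum or 5 expression components as covariates. The rising genes stay at 0.63 or above without the 4 eyes, and with 5 components every symbol lies between −0.14 and 0.36. Values are scaled to depth, and without that all 15 falling genes have a positive r.

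The pathways of Tmem135 could be seen only through the few members with a symbol. Of 460 genes listed for peroxisomes, mitochondria, lipid synthesis, eye cell types and the pressure loci, 25 were named and tested, of which 5 rose (20%, against 23.4% of all genes tested) and 4 fell (16%, against 16.7%). These shares were near those of all genes. Without the 4 eyes 4 of the 25 rose and 0 fell by limma, against 18.5% and 8.99% of all genes tested in that setting. At an unadjusted p under 0.05, 2 members were lower there.

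In the peroxisome lists, 2 of the 4 tested members rose, against 23.4% of all genes tested. Crot, which readies medium-chain fatty acids for export from peroxisomes to mitochondria, ranged between 21.9 CPM in the lowest Tmem135 eye and 84.2 CPM in the highest, with a median of 48.01 CPM. Its r was 0.72 (permutation p = 1e-05, rho = 0.65, limma adjusted p = 2.50e-08), and 0.60 without the 4 eyes. In the 39 eyes r was 0.73, and in the 12 eyes of other tag prefixes 0.19. Pex13, which docks proteins for import into peroxisomes, ranged between 12.2 and 37.8 CPM with r = 0.42 (permutation p = 0.00266, rho = 0.50, limma adjusted p = 0.00918). Without the 4 eyes it was not called (r = 0.35, limma adjusted p = 0.0607). Nor was it with the chromosome MT covariate (partial r = 0.21, limma adjusted p = 0.396). Pex11a, which takes part in peroxisome division, and Acaa1a, the thiolase of peroxisomal fatty acid oxidation, were not called, with r = −0.14 and −0.15.

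Of the nuclear genes listed for the respiratory chain and mitochondrial fatty acid oxidation, 2 of the 3 tested rose, against 23.4% of all genes tested. Ucp2, which fell (r = −0.62), and Ndufaf6, an assembly factor of complex I that was not called (r = −0.27), were not on these lists. Uqcrc2, a core subunit of respiratory complex III, was at 47.3 CPM in the lowest Tmem135 eye, where the next lowest eye had 69.6 CPM, and had a median of 124 CPM and a maximum of 162 CPM. Its r was 0.74 (permutation p = 1e-05, rho = 0.61, limma adjusted p = 4.76e-09), and 0.64 without the 4 eyes. Acadm, the medium-chain acyl-CoA dehydrogenase of mitochondria, ranged between 114 and 313 CPM with r = 0.51 (permutation p = 0.00017, rho = 0.50, limma adjusted p = 0.000689), and 0.40 without the 4 eyes (limma adjusted p = 0.0224). Ndufb8, a subunit of respiratory complex I, was not called (r = −0.15), so the members of the respiratory chain list that could be read did not move together. Mitochondrial fission and fusion genes had no named member.

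Of the lipid synthesis genes, Srebf2, the transcription factor of cholesterol synthesis, fell (r = −0.35, permutation p = 0.0111, rho = −0.32, limma adjusted p = 0.0279), and without the 4 eyes it was not called (r = −0.23, limma adjusted p = 0.227). With the chromosome MT covariate its partial r was 0.0043. Lss, an enzyme of the same pathway, and Fads1, a fatty acid desaturase, were not called (r = −0.23 and −0.11).

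Markers of the cell types of the eye were represented by 10 tested genes, of which 2 fell and 0 rose by limma, with 3 lower and 0 higher at an unadjusted p under 0.05. Among all genes tested 16.7% fell and 23.4% rose by limma. Guca1b fell (r = −0.38, limma adjusted p = 0.0185), as did Fmod, a collagen-binding protein of the stroma (r = −0.35, permutation p = 0.0119, rho = −0.41, limma adjusted p = 0.0263), and neither was called without the 4 eyes (r = −0.31 and −0.33). Glul of Müller glia (r = −0.12), Elf3 of the corneal epithelium (r = −0.06), Tyr and Rab38 of melanin synthesis (r = −0.06 and 0.04), Lum of the stroma (r = 0.08), Col9a1 of the ciliary body (r = −0.27), Cd68 of macrophages (r = 0.06) and Hbb of blood (r = −0.26) were not called. Rods, with 1 tested marker, and the lens, with none, could not be judged as lists, and their part in the results was not tested.

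**Figure D5:**
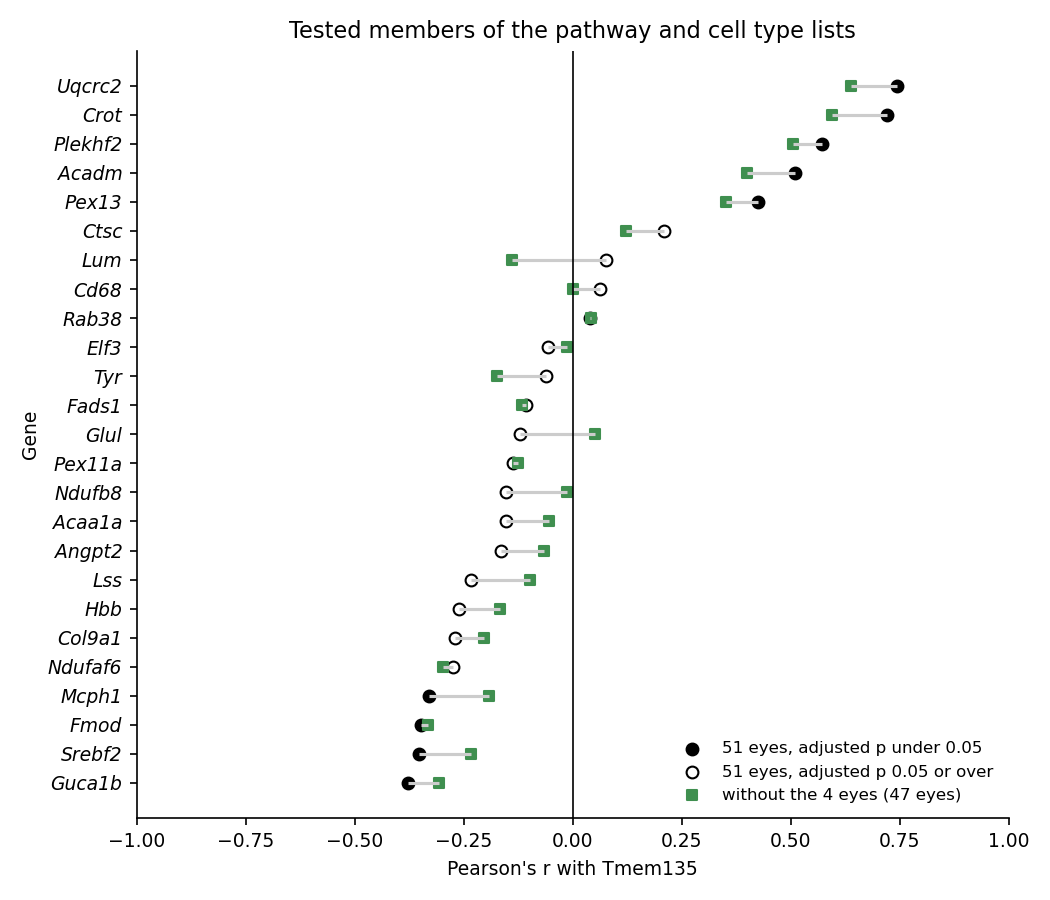
Pearson's r with Tmem135 (horizontal axis) of the 25 tested list members (vertical axis), over all 51 eyes (circles, filled where the limma adjusted p was under 0.05) and without the 4 eyes (squares). The 5 filled circles on the right are Uqcrc2, Crot, Plekhf2, Acadm and Pex13, at 0.42 to 0.74, and the 4 on the left lie between −0.38 and −0.33.

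The neighbours of Tmem135 on chromosome 1 include genes of a pressure locus. The study lists Tmem135 itself with that locus, although its text does not name Tmem135 among the genes of the associated interval. In its test no nearby variant was associated with the Tmem135 level past the study's threshold. Within 2 Mb of its start site 24 other genes were deposited and 12 were tested, of which 4 rose (33.3%, against 23.4% of all genes tested) and 0 fell by limma, with 0 lower at an unadjusted p under 0.05. Tyr, which makes melanin, Ctsc, a lysosomal protease, and Rab38, which carries melanin enzymes to their organelle, are the named neighbours, at 1989, 1178 and 1024 kb below the Tmem135 start. None was called, with r = −0.06, 0.21 and 0.04. The neighbour that rose most, ENSRNOG00000018322, begins 1281 kb above Tmem135 and has no symbol here. It ranged between 36.96 CPM, in the lowest Tmem135 eye, and 142 CPM with a median of 94.5 CPM, and had r = 0.83 (permutation p = 1e-05, rho = 0.79, limma adjusted p = 1.12e-12), 0.77 without the 4 eyes and 0.78 within the 12 eyes of other tag prefixes. Of the genes listed at the other pressure loci, Mcph1 on chromosome 16 fell (r = −0.33, limma adjusted p = 0.0459) but was not called without the 4 eyes (r = −0.19), and Angpt2 on chromosome 16 and Ndufaf6 on chromosome 5 were not called (r = −0.16 and −0.27).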

How the data were processed

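Whole-eye polyA RNA of 53 HS rats was sequenced as paired-end reads. The authors aligned reads to Rnor_6.0 with STAR, quantified genes with RSEM, checked eyes against genotypes (GATK), relabelled 11 eyes and removed 2. The deposited values, per the file and its values, are log2 of the expected count plus 1. Of values between 0.5 and 50 expected counts, 89.8% lay within 0.01 of a whole number, so they are not TPM. Here the log was undone and each eye was scaled to 1000000 counts. Levels were set on log2(CPM + 1), which understates changes of low genes.

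Each gene was regressed on Tmem135 with limma 3.58.1 (R 4.3.3), two-sided, with Benjamini-Hochberg adjustment over genes of a median of at least 1 CPM, called at 0.05. r and rho have two-sided permutation p from 100000 permutations (Python 3.11.15). p-values rest on the spread between rats, 1 eye each, and treat the rats as independent. Relatedness among the rats, which the study modelled in its association test, was not taken into account in them. Nor was the tag prefix. Named genes were the 15 with a symbol of largest positive and negative t, the 10 in each direction with the largest weakest r over 5 settings, the genes near Tmem135 and those listed at the pressure loci, the 3 highest tested members of each list, and single genes counted alone. Up to 3 genes without a symbol with the extreme r, and the 2 promoters shown, were chosen after values were seen. The members and lists were chosen with earlier results of these data known. Symbols came from variant positions and distances in the study's gene list (778 of 778 matched) and from 8 of 11 loci within 500 bp. Tested on simulated data over 13843 genes, slopes on Tmem135 of 1 and −1 were called in 50 of 50 genes each, of 0.5 in 27 of 50 and of −0.5 in 30 of 50, and 7 of 13643 genes with no slope were called. Alternatives covered scaling, pseudocount, filter, eyes left out, tag prefix and covariates.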

Additional observations from a re-analysis of the deposited data

How the results depend on the processing

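Alternatives are given as genes that rose and fell, and as list members that rose and fell. The cause of a change was not tested unless stated. Without scaling to depth, 11319 genes and 18 list members rose, 5 genes and 0 members fell, and the median log2 slope over all genes was 0.54, against −0.06 with scaling, so depth stayed in every value. In that setting r was 0.16 for Ucp2, 0.21 for Vegfb, 0.38 for Agap3, 0.15 for Zyx, 0.21 for Six3, 0.43 for Ptov1, 0.37 for Lrp10, 0.46 for Ngef, 0.29 for Man2b2, 0.46 for Plbd2, 0.49 for Flywch1, 0.37 for Anxa6, 0.39 for Kcnab2, 0.47 for Cacnb3, 0.25 for Rd3, 0.36 for Slc5a6, 0.35 for Mmp15, 0.34 for Ncln, 0.49 for Szrd1, 0.45 for Guca1b, 0.20 for Fmod, 0.40 for Srebf2, 0.19 for Mcph1 and 0.37 for ENSRNOG00000053729. With 5 components 0 genes and 0 members rose or fell by limma, with 1369 genes at an unadjusted p under 0.05, and the partial r was −0.0026 for Ppp1cb, −0.0106 for Il33, −0.13 for Ssr3, 0.0804 for Ucp2, 0.0301 for Agap3, 0.0943 for Zyx, 0.23 for Six3, 0.16 for Lrp10, 0.19 for Man2b2, 0.0893 for Plbd2, 0.29 for Flywch1, 0.0141 for Anxa6, 0.0045 for Kcnab2, 0.10 for Rd3, −0.034 for Ptp4a1, 0.031 for Ncln, 0.15 for Fmod, −0.22 for Pex13, −0.0112 for Crot, −0.19 for Plekhf2 and −0.027 for ENSRNOG00000018322. With 20 components, again 0 genes and 0 members by limma and 832 genes at an unadjusted p under 0.05, it was −0.16 for Ppp1cb, −0.13 for Il33, −0.25 for Scaf11, −0.0023 for Tmtc3, −0.36 for Ssr3, 0.0534 for Ucp2, 0.15 for Agap3, 0.17 for Zyx, 0.41 for Six3, 0.25 for Lrp10, 0.28 for Man2b2, 0.0408 for Flywch1, −0.0507 for Pex13, −0.18 for Crot, 0.10 for Srebf2 and −0.11 for Plekhf2. In the 12 eyes of other tag prefixes 0 genes and 0 members were called by limma, with 1821 genes at an unadjusted p under 0.05 and fewer eyes, and r was 0.21 for Mmp15. With the chromosome MT covariate 1542 genes and 3 members rose, 69 genes and 1 member fell, and Srebf2 had a partial r of 0.0043. Genes that fell numbered 1245 without the 4 eyes and 1247 without the 2 eyes farthest from the median Tmem135 level. List members that fell numbered 2 with TMM scaling, 1 without the lowest eye, 1 without the eyes low in ENSRNOG00000047175, 0 without the 4 eyes, 1 without the 2 farthest eyes, 2 without the 11 relabelled eyes, 2 in the most common tag prefix and 1 without the 4 eyes with median-of-ratios scaling, against 4. ENSRNOG00000047175 had r = −0.44 without the eyes in which it was low, past the threshold that it missed over all eyes. Median-of-ratios scaling, a pseudocount of 0.1 CPM, no filter, a minimum of 10 CPM, inverse normal values, ENSRNOG00000047175 as a covariate, leaving out the 3 deepest eyes, and a total without chromosome MT and the 10 highest genes (added after the data were seen) moved no count of called genes or members by over 1.5 times. A total without the lens crystallins was not run, since they could not be named. No paired analysis was possible because all eyes form 1 group with 1 eye per rat. A slope of 0.5 was recovered in 27 of 50 simulated cases. In these eyes some smaller slopes were called, such as 0.43 for Plekhf2 (limma adjusted p = 8.87e-05) and −0.31 for Szrd1 (limma adjusted p = 0.0012). Others were not, such as −0.45 for Col9a1 (limma adjusted p = 0.0968). Partners of such slopes can be missed, but the share missed in these eyes was not tested.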
